A study of Mus musculus with 26 samples.

Results

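Gene expression in the left lung was compared between mice kept in filtered air for 48 hr and mice kept in filtered air for 24 hr. The 8 arrays of this comparison were taken from the 26 arrays of the series by their labelled exposure and time, with 4 arrays at 48 hr and 4 at 24 hr. At each time, 2 arrays were of Il10-/- mice and 2 of Il10+/+ mice. The Il10-/- mice (labelled B6.129P2-Il10tmlCgn/J) carry a targeted deletion of the gene for interleukin-10 in every cell, and the Il10+/+ mice were of strain C57BL/6. All were male and 6 to 8 weeks of age. They were housed singly in wire cages inside the exposure chamber for 23.5 hr of each day, with no O3. The deletion was made in cells of another inbred strain, so that genes beside Il10 can also differ between the genotypes, and the controls were a purchased strain. The paper describes a sample that it left out of its array analysis as coming from an Il10-/- mouse. For the arrays compared here, the sources do not state the number of mice behind each array or the clock hour of killing. The p-values below therefore measure only the spread between these arrays, which may be technical. Values are log2 expression levels, and a difference of 1 is a 2-fold difference.

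Air controls are often treated as a single baseline for an O3 exposure. The comparison asks what differed between the lungs after a second day in the chamber without O3. Lung tissue is a mixture. Its airways are lined by club and other secretory cells, which release proteins into the airway fluid, and by ciliated cells, which move that fluid. Cardiac muscle reaches into the mouse lung around the pulmonary veins, and fat lies around the lung's root. Many lung genes also follow the circadian clock, in which CLOCK and BMAL1 switch on genes such as Per1, Nr1d1 and Dbp, whose products in turn feed back on it. Interleukin-10 is an anti-inflammatory cytokine that signals through STAT3. In such bulk tissue, fewer cells of a type and less RNA per cell cannot be told apart.

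A library labelled Il10-/- air 48 hr, replicate 1, did not carry the pattern of its genotype. Its Il10 value was 3.87, while the other 12 Il10-/- arrays lay between 6.29 and 7.71 and the 13 Il10+/+ arrays between 3.92 and 4.25. The Il10 signal was thus higher on the Il10-/- arrays, the reverse of what a loss of the transcript gives, and the probe set's place relative to the deleted part was not looked up. It separates the genotypes here but does not check the deletion. Of 11 genes that separated the genotypes on the O3 arrays, this library lay on the Il10-/- side for 0, each of the other 3 Il10-/- air arrays for 9, and the 4 Il10+/+ air arrays for 0 to 2. Nnt, which encodes a mitochondrial proton pump, had values of 7.66 on this library and 9.18 on replicate 2 of the same group, 7.86 and 7.47 in Il10+/+ mice at 48 hr, 8.90 and 8.90 in Il10-/- mice at 24 hr and 7.69 and 7.89 in Il10+/+ mice at 24 hr. The label was kept as given. Counts of genes, many list medians and the differences of leading genes are also given without this library below. The air arrays were alike, with Pearson's r across probe sets, which are not independent replicates, of 0.9853 to 0.9960 over 28 pairs. Pairs of the same group had r of 0.9875 to 0.9952 and pairs of the same genotype at the other time 0.9889 to 0.9960. Marker genes of alveolar type 2 cells, which make surfactant, averaged 11.92 to 12.08 at 48 hr and 12.03 to 12.13 at 24 hr.

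No gene passed the test between 48 and 24 hr in air. Of 12394 genes, 0 had an adjusted p under 0.05 (limma with genotype in the model, Benjamini-Hochberg adjustment) and the smallest adjusted p was 0.84. At an unadjusted p under 0.05 there were 310 genes (2.5%), of which 180 (1.45%) were higher at 48 hr and 130 (1.05%) lower. Both directions were about equally frequent, with 6372 genes (51.4%) above 0, a median difference of 0.003 and quartiles of -0.06 and 0.07. The 95% confidence interval of a gene reached a median of 0.25 to either side of its difference. The 4 arrays of 48 hr lay entirely above the 4 of 24 hr for 98 genes (0.791%) and entirely below them for 75 (0.605%). A difference of over 1 was seen in 12 genes (0.0968%) in the higher direction and 3 genes (0.0242%) in the lower. Without the library labelled replicate 1 of Il10-/- air 48 hr, again 0 genes passed, and 331 had an unadjusted p under 0.05. Because no gene passed, the values that follow describe these arrays, and "higher" and "lower" refer to them.

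The largest differences were in genes of airway secretion. Bpifa1, which encodes an abundant secreted defense protein of the upper airways, had values of 10.60 and 11.95 in Il10-/- and 12.13 and 10.74 in Il10+/+ mice at 48 hr, against 11.64 and 9.36 in Il10-/- and 5.38 and 5.80 in Il10+/+ mice at 24 hr. Both Il10+/+ arrays of 24 hr were far below the other 6 arrays, and the remaining groups overlapped. The mean difference was 3.31 (95% confidence interval 1.19 to 5.44), a 9.94-fold difference, with an adjusted p of 0.9995. It was 0.78 within Il10-/- and 5.85 within Il10+/+ mice. The spread was as uneven as the means, with 11.36 ± 0.80 at 48 hr and 8.04 ± 2.99 at 24 hr (SD, n = 4 each). Bpifb1, a related secreted protein, had values of 9.22, 10.11, 10.39 and 9.84 at 48 hr, with the Il10-/- arrays first here and in the lists below, against 9.53, 8.73, 5.87 and 7.15 at 24 hr. Its difference was 2.07 (0.78 to 3.36).

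Other secreted proteins were also higher at 48 hr on average. Reg3g, an antibacterial lectin, had values of 7.91, 9.24, 9.30 and 7.54 at 48 hr and 8.67, 6.26, 4.95 and 5.60 at 24 hr, with a difference of 2.13 (0.72 to 3.54). Scgb3a1, a secretoglobin of airway secretory cells, had values of 12.10, 12.70, 12.87 and 11.99 at 48 hr and 12.56, 11.61, 9.94 and 9.80 at 24 hr, with a difference of 1.44 (0.47 to 2.41). For both genes the Il10+/+ arrays of 24 hr were the lowest pair, and the Il10-/- arrays of 24 hr lay partly within the range of 48 hr. Tff2, a trefoil peptide of mucus, and Ltf, the iron-binding lactoferrin, had differences of 1.08 (0.48 to 1.68) and 1.03 (0.24 to 1.82). The lists were not uniform. Scgb1a1 and Cyp2f2, the defining products of club cells, and Scgb3a2 had differences of -0.02 (-0.24 to 0.19), 0.04 (-0.16 to 0.24) and 0.06 (-0.16 to 0.27). Their levels on the 8 arrays stayed between 14.08 and 14.39, 13.58 and 13.78 and 13.37 and 13.63.

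Over the 13 measured genes of club and secretory cells, 9 were above 0, with a median difference of 0.32 (0.003 over all genes). Of the 13, 5 were higher at an unadjusted p under 0.05 and 1 was lower, where 1.45% and 1.05% of all genes were. The list's median was 0.17 in Il10-/- and 0.35 in Il10+/+ mice. It was 0.15 without Il10+/+ air 24 hr replicate 1 and 0.48 without replicate 2 of that group, and 0.37 without the library labelled replicate 1 of Il10-/- air 48 hr. For 5 of the 13 genes both Il10+/+ arrays of 24 hr lay below the other 6 arrays, against 3.67% of all genes. All 9 measured genes of ciliated cells were above 0, with a median of 0.32, and 2 were higher at an unadjusted p under 0.05 (1.45% of all genes). With an array left out the median lay between 0.21 (Il10+/+ air 48 hr replicate 2) and 0.49 (Il10-/- air 24 hr replicate 2). Foxj1, the transcription factor of motile cilia, had values of 8.92, 9.24, 9.26 and 8.50 at 48 hr and 8.82, 8.80, 8.04 and 8.22 at 24 hr, a difference of 0.51 (0.12 to 0.90). The arrays of the 2 times overlapped for Foxj1. Tekt2, a filament protein of cilia and sperm tails, was not in the list and was named only because its arrays did not overlap. It had 6.70, 6.84, 6.87 and 7.01 at 48 hr and 6.48, 6.38, 6.46 and 6.52 at 24 hr, a difference of 0.40 (0.20 to 0.59). The ciliated list had a median of 0.08 within Il10-/- and 0.64 within Il10+/+ mice, and without the library labelled replicate 1 of Il10-/- air 48 hr 5 of its genes had an unadjusted p under 0.05. Without that library the differences were 4.09 for Bpifa1, 2.55 for Bpifb1, 2.60 for Reg3g and 1.78 for Scgb3a1.

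**Figure D1:**
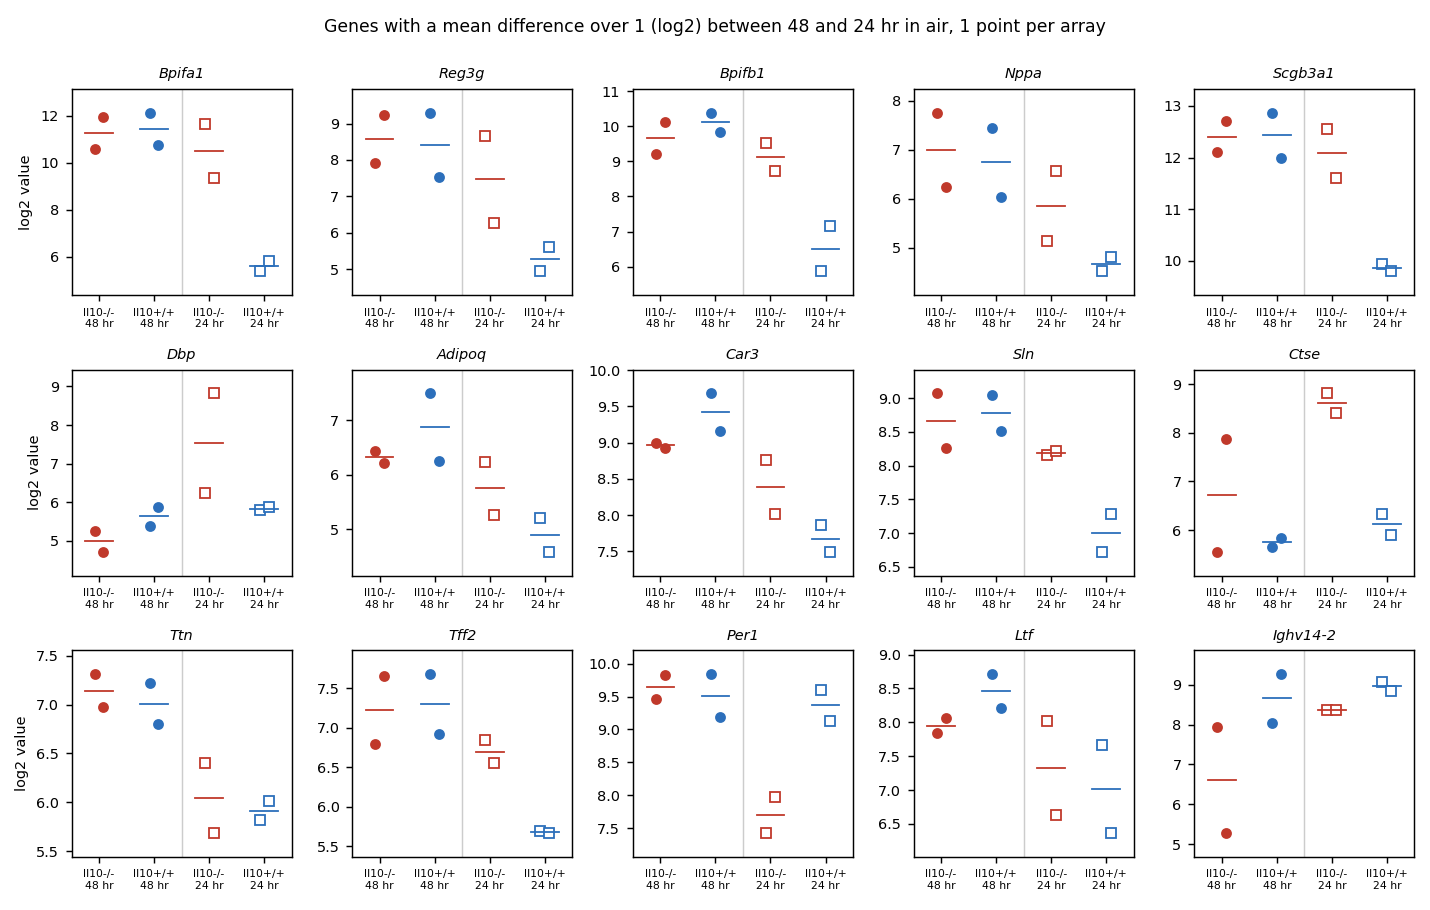
Log2 value (y axis, own scale in each panel) of the 15 genes with a difference over 1 in size, 1 point per array and a line at the mean of each group of 2 arrays. Filled points are 48 hr and open points 24 hr, with Il10-/- left of Il10+/+ mice within each time. In 9 of the 12 genes that were higher at 48 hr, both Il10+/+ arrays of 24 hr lay below the other 6 arrays (3.67% of all genes). The genes were picked by a difference that low arrays of 24 hr enlarge.

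Genes of striated muscle made up the second group. Ttn, the giant spring protein of the sarcomere, had values of 7.31, 6.97, 7.22 and 6.80 at 48 hr and 6.40, 5.69, 5.82 and 6.01 at 24 hr. The times did not overlap, and the difference of 1.10 (0.73 to 1.47) had the smallest adjusted p of all genes, 0.84. It was alike within the genotypes, at 1.10 in Il10-/- and 1.10 in Il10+/+ mice. Nppa, the natriuretic peptide of the atria, had values of 7.76, 6.23, 7.45 and 6.04 at 48 hr and 5.14, 6.57, 4.52 and 4.80 at 24 hr, a difference of 1.61 (0.62 to 2.60), with overlapping arrays. Sln, the calcium pump regulator sarcolipin, had 9.07, 8.26, 9.05 and 8.51 at 48 hr and 8.15, 8.22, 6.72 and 7.28 at 24 hr, a difference of 1.13 (0.50 to 1.77). Its times were apart, but by little, and the probe set of Sln with the lower mean gave -0.04.

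Cardiac members of the muscle list were higher at 48 hr. Myh6, the heart's alpha myosin, had a difference of 0.89 (0.50 to 1.28), and its arrays lay between 9.47 and 9.80 at 48 hr and between 8.07 and 9.15 at 24 hr. Myl7 and Myl4, the atrial myosin light chains, had differences of 0.98 (0.47 to 1.49) and 0.91 (0.44 to 1.37), and Mb, the oxygen store myoglobin, had 0.99 (0.52 to 1.47). Actn2, Fhl2 and Myom2, proteins of the sarcomere and its discs, are, like Ttn, not in the list. They were named only because their arrays did not overlap, so they are no separate support for the list. Their differences were 0.96 (0.56 to 1.37), 0.56 (0.28 to 0.84) and 0.45 (0.22 to 0.68). Of the 25 muscle genes, 22 were above 0, 14 had an unadjusted p under 0.05 in the higher direction (1.45% of all genes) and 4 had non-overlapping arrays (0.791%). Among the smooth muscle genes of the list, Acta2, an actin, and Myh11, a myosin, had differences of 0.18 and 0.18. The mean over the 25 genes lay between 7.95 and 8.30 at 48 hr and between 7.33 and 7.88 at 24 hr, so that the times were apart for the list as well. The median was 0.46, with 0.21 in Il10-/- and 0.68 in Il10+/+ mice, and 12 of the 25 genes had both Il10+/+ arrays of 24 hr below the other 6 (3.67% of all genes). Without the library labelled replicate 1 of Il10-/- air 48 hr it was 0.51, with 15 genes at an unadjusted p under 0.05, and the differences were 1.03 for Ttn, 1.40 for Nppa, 1.10 for Sln and 0.89 for Myh6.

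Fat genes lay in the same direction. Adipoq, the fat hormone adiponectin, had values of 6.44, 6.22, 7.49 and 6.25 at 48 hr and 6.24, 5.26, 5.20 and 4.58 at 24 hr, a difference of 1.28 (0.47 to 2.09). The times overlapped by a single array of 24 hr. Car3, a carbonic anhydrase of fat and muscle, had values between 8.93 and 9.68 at 48 hr and between 7.49 and 8.76 at 24 hr, with a difference of 1.16 (0.59 to 1.74) and non-overlapping arrays. Fabp4, a fatty acid binding protein of fat and macrophages, had non-overlapping arrays and a difference of 0.78 (0.30 to 1.26), and its 3 dimmer probe sets gave 0.50, -0.12 and 0.10. Thrsp, a regulator of fat synthesis, had 0.73 (0.05 to 1.41). Of 16 adipose genes, 12 were above 0, 7 were higher at an unadjusted p under 0.05 (1.45% of all genes) and 3 had non-overlapping arrays in that direction (0.791%). The list's mean was 6.19 to 6.79 at 48 hr and 5.78 to 6.17 at 24 hr, and its median was 0.30, with 0.12 in Il10-/- and 0.55 in Il10+/+ mice. The median was 0.18 without Il10+/+ air 48 hr replicate 1. It was 0.36 with 6 genes at that p without the library labelled replicate 1 of Il10-/- air 48 hr, and Adipoq then had 1.38. Muscle, fat and airway secretory values thus moved together on the Il10+/+ arrays of 24 hr, and the part of tissue composition in them was not tested.

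Values of these genes also varied among the O3 arrays. Replicate 2 of the Il10-/- O3 24 hr group stood apart from all other arrays. On the remaining 25, which include the 8 air arrays, Bpifa1 lay between 5.34 and 13.11, and on the air arrays between 5.38 and 12.13. Its values reached from 5.34 to 10.93 on the 6 arrays of O3 at 48 hr. Replicate 2 of Il10+/+ mice in O3 for 24 hr had the highest value of the 25 arrays for Bpifa1 (13.11), Bpifb1 (11.50), Reg3g (11.32), Scgb3a1 (13.17), Nppa (9.52), Ttn (8.18), Myl7 (11.86), Sln (10.12), Adipoq (8.66) and Car3 (10.69). Airway secretory, cardiac and fat genes were thus high on the same library there.

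**Figure D2:**
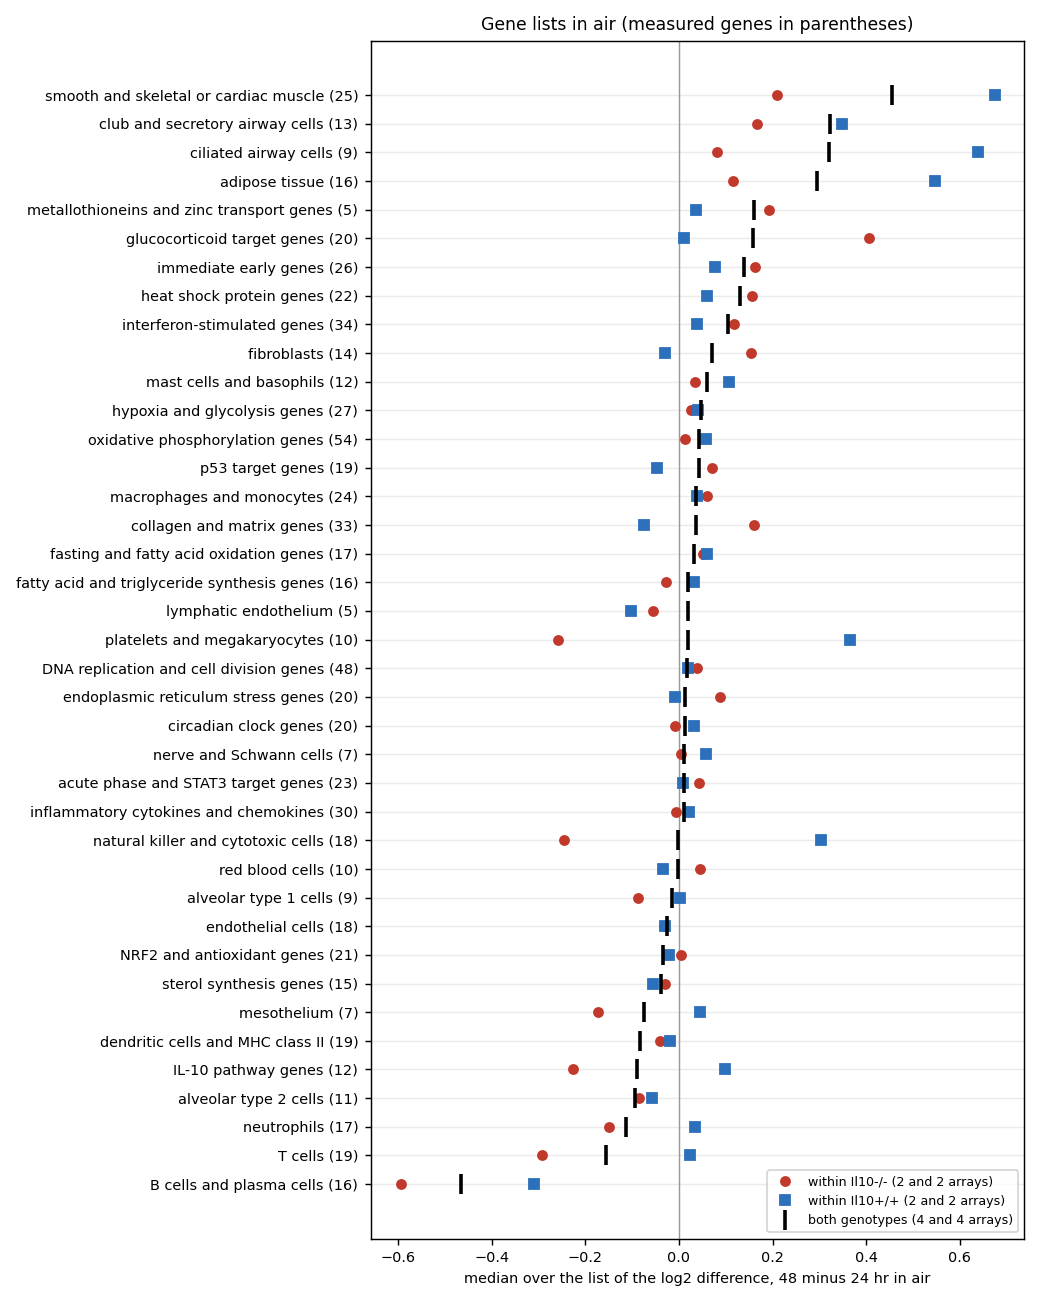
Median over each gene list of the log2 difference, 48 minus 24 hr in air (x axis), with the number of measured genes in parentheses. Circles are Il10-/- and squares Il10+/+ mice, with 2 arrays at each time, and bars are both genotypes together. Muscle (0.46), club and secretory (0.32), ciliated (0.32) and adipose (0.30) genes lay at the upper end and B cells (-0.47) at the lower end.

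Lymphocyte genes were on the lower side. The 16 genes of B cells and plasma cells had a median of -0.47. Of these, 13 were below 0 and 5 had an unadjusted p under 0.05 in the lower direction (1.05% of all genes). Pou2af1, a B cell coactivator, had values of 6.12, 4.95, 6.82 and 6.79 at 48 hr and 6.28, 6.21, 7.33 and 7.90 at 24 hr, a difference of -0.76 (-1.26 to -0.26). Within each genotype its arrays of 48 hr were below those of 24 hr, but the times overlapped across genotypes. Spib, a transcription factor of B cells and dendritic cells, and Cr2, a complement receptor of B cells, had -0.65 (-1.13 to -0.17) and -0.44 (-0.70 to -0.18). Ighv14-2, an antibody heavy chain segment, is not in the list and was named for its size of difference. It had 7.94, 5.29, 8.05 and 9.26 at 48 hr and 8.37, 8.36, 9.07 and 8.85 at 24 hr, a difference of -1.03 (-2.21 to 0.15). A single array, Il10-/- air 48 hr replicate 2, set much of this. The mean of the B cell list was 6.00 there and 7.01 to 7.78 on the other 7 arrays. Both arrays labelled Il10-/- air 48 hr lay below the other 6 for 7 of the 16 genes, against 3.97% of all genes. Without Il10-/- air 48 hr replicate 2 the list's median was -0.20 with 3 genes lower and 2 higher at an unadjusted p under 0.05, and without the library labelled replicate 1 of that group it was -0.69 with 12 lower.

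Of the 19 T cell genes, 15 were below 0, with a median of -0.16 and 2 lower at an unadjusted p under 0.05 (1.05% of all genes). The median was -0.29 in Il10-/- mice and 0.02 in Il10+/+ mice, where 10 of 19 were above 0. Without Il10-/- air 48 hr replicate 2 it was -0.10 with 0 genes at that p, and without the library labelled replicate 1 of that group it was -0.16 with 2. Both arrays of that group lay below the other 6 for 7 of the 19 genes (3.97% of all genes). Their means over the list were 6.11 and 5.94, against 6.27 to 6.43 on the other 6 arrays. Cd3d, a chain of the T cell receptor complex, had 7.28, 6.90, 7.46 and 7.68 at 48 hr and 7.87, 7.53, 7.58 and 7.87 at 24 hr, a difference of -0.38 (-0.71 to -0.06). Satb1, a chromatin organizer of thymocytes, had -0.31 (-0.56 to -0.06). Immune genes whose arrays did not overlap included Stat4, which transmits interleukin-12 signals, at -0.50 (-0.80 to -0.21), and Slamf6, a lymphocyte receptor, at -0.35 (-0.56 to -0.15). The Slamf6 values were low, at 4.03 to 4.62, and its other probe set, of nearly the same mean, gave -0.07. Ccl17, a chemokine of dendritic cells, had 7.06, 7.17, 7.18 and 6.79 at 48 hr and 7.27, 7.56, 7.46 and 7.56 at 24 hr, a difference of -0.41 (-0.68 to -0.14). Cx3cr1, the fractalkine receptor of monocytes, had narrow groups, at 5.44 to 5.60 at 48 hr and 5.70 to 5.79 at 24 hr, and a difference of -0.26 (-0.44 to -0.07). S100a8, a calcium-binding protein of neutrophils, had 8.97, 9.52, 9.15 and 10.70 at 48 hr and 10.77, 10.27, 10.42 and 10.04 at 24 hr, a difference of -0.79 (-1.53 to -0.05), with 1 array of 48 hr among those of 24 hr, and of -0.59 without the library labelled replicate 1 of Il10-/- air 48 hr. The 17 neutrophil genes had a median of -0.11.

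Among the genes lower at 48 hr with non-overlapping arrays were also 2 signaling enzymes. Prkg1, a kinase activated by cyclic GMP, had 4.65, 4.77, 5.05 and 4.68 at 48 hr and 5.21, 5.15, 5.19 and 5.44 at 24 hr, a difference of -0.46 (-0.70 to -0.22). Pik3r1, the regulatory subunit of phosphoinositide 3-kinase, had 7.86, 7.61, 7.30 and 7.33 at 48 hr and 8.10, 7.89, 7.99 and 7.99 at 24 hr, a difference of -0.47 (-0.73 to -0.21). Ctse, the protease cathepsin E, had the second largest lower difference, -1.13 (-2.17 to -0.09). It is also a gene that separated the genotypes on the O3 arrays, and without the library labelled replicate 1 of Il10-/- air 48 hr the difference was -0.51. Its values were 5.55 and 7.88 in Il10-/- and 5.65 and 5.84 in Il10+/+ mice at 48 hr, against 8.81 and 8.40 in Il10-/- and 6.33 and 5.90 in Il10+/+ mice at 24 hr.

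For several clock genes the Il10-/- arrays of 24 hr stood apart. Both lay below the other 6 arrays for 3 of the 20 measured clock genes and above them for 3, where 3.92% and 4.03% of all genes did so. Per1, which encodes a repressor of the clock, had values of 9.46 and 9.83 in Il10-/- and 9.84 and 9.19 in Il10+/+ mice at 48 hr, against 7.43 and 7.97 in Il10-/- and 9.60 and 9.13 in Il10+/+ mice at 24 hr. Its mean difference of 1.05 (0.28 to 1.81) was 1.94 within Il10-/- and 0.15 within Il10+/+ mice. Nr1d1, the repressor REV-ERB alpha, had the opposite order, with 7.47, 6.61, 7.20 and 7.58 at 48 hr and 8.98, 9.18, 7.38 and 6.89 at 24 hr. Its difference was -2.04 within Il10-/- and 0.25 within Il10+/+ mice. Nr1d2, REV-ERB beta, had 8.43, 8.51, 8.34 and 8.57 at 48 hr and 8.84, 9.83, 8.60 and 8.87 at 24 hr, with non-overlapping arrays and a difference of -0.57 (-1.04 to -0.10). Dbp, an output transcription factor of the clock, had 5.26, 4.71, 5.39 and 5.88 at 48 hr and 6.23, 8.82, 5.79 and 5.87 at 24 hr, a difference of -1.36 (-2.66 to -0.07). The value of 8.82 came from a single array, Il10-/- air 24 hr replicate 2. Over the 20 clock genes the median was 0.01, with 10 above and 10 below 0, and 2 higher and 2 lower at an unadjusted p under 0.05. Without the library labelled replicate 1 of Il10-/- air 48 hr the median was 0.04, with 3 higher and 0 lower, and the differences were 0.94 for Per1, -0.84 for Nr1d1, -0.50 for Nr1d2 and -1.24 for Dbp.

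The promoters of these clock genes were searched for short binding sites of clock factors. The windows of Nr1d2, Nr1d1 and the first start site of Per1 are shown. The 250 bases before the RefSeq start (GRCm38.p6) were searched on both strands for the E-box CACGTG, the site of CLOCK and BMAL1, and for AGGTCA, the half-site of REV-ERB and related receptors. Matches are in capitals, and a match on the other strand reads TGACCT. Of 32851 such windows, 6.02% held the E-box and 14.0% the half-site. Per1 (chr11:69098699-69098948, + strand, first of its 2 start sites) held 1 of each, and Nr1d2 (chr14:18239107-18239356, - strand) held 1 half-site. The windows of Nr1d1 (chr11:98775378-98775627, - strand) and Dbp (chr7:45704997-45705246, + strand) and of the other Per1 start held neither, which says only that these letters were not there.
Per1: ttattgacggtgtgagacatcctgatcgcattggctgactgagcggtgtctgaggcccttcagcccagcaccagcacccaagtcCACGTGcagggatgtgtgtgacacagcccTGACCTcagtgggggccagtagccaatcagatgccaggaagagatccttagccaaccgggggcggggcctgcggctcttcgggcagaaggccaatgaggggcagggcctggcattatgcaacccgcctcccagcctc
Nr1d2: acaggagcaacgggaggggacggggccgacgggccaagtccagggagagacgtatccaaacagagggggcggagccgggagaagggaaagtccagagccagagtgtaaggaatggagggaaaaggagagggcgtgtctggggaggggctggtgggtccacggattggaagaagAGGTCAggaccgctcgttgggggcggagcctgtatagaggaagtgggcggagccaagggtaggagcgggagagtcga
Nr1d1: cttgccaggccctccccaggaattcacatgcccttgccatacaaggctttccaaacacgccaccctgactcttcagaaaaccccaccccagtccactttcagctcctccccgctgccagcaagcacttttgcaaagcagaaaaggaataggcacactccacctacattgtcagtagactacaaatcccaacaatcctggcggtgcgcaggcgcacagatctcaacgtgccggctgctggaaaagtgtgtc

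Some genes that respond to glucocorticoid or to acute stimuli were, like Per1, lowest on the Il10-/- arrays of 24 hr. This was so for 5 of 20 glucocorticoid target genes and 6 of 26 immediate early genes, against 3.92% of all genes. In the other direction, both arrays lay above the other 6 for 0 and 2 genes of these lists, against 4.03% of all genes. Cebpd, a transcription factor named from the acute phase list, is in neither of these lists. It had 10.96, 11.08, 11.08 and 10.94 at 48 hr and 9.58, 9.82, 10.93 and 10.93 at 24 hr. The 6 arrays outside the Il10-/- 24 hr group lay between 10.93 and 11.08. Its difference of 1.32 within Il10-/- mice had the smallest adjusted p within a genotype, 0.076 (limma), and was 0.08 in Il10+/+ mice. That p-value includes the library labelled replicate 1 of Il10-/- air 48 hr. Without this library the difference of Cebpd within Il10-/- mice was 1.38. Angptl4, an inhibitor of lipoprotein lipase, had 9.47, 9.17, 9.45 and 8.91 at 48 hr and 8.41, 8.56, 9.26 and 9.09 at 24 hr. Klf4, a transcription factor of epithelium and endothelium, had 10.88, 11.14, 11.31 and 10.95 at 48 hr and 10.07, 10.32, 11.07 and 11.07 at 24 hr. In each, the Il10-/- arrays of 24 hr were the lowest pair, below the other 6 arrays. Of 20 glucocorticoid target genes, 16 were above 0 and 3 were higher at an unadjusted p under 0.05 (1.45% of all genes). The median was 0.16, with 0.41 in Il10-/- and 0.01 in Il10+/+ mice. It was 0.04 with 1 gene at that p without Il10-/- air 48 hr replicate 2, and 0.27 with 2 genes without the library labelled replicate 1 of that group. Without that library the differences were 0.60 for Cebpd, 0.28 for Angptl4 and 0.41 for Klf4, against 0.70, 0.42 and 0.44 with it. Pdk4, a brake on glucose oxidation that glucocorticoid and fasting induce, had 0.73 (0.14 to 1.32).

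Of the 26 immediate early genes, 21 were above 0, with a median of 0.14 and 4 higher at an unadjusted p under 0.05 (1.45% of all genes). The median was 0.20 with 3 at that p without the library labelled replicate 1 of Il10-/- air 48 hr. Atf3, a stress-induced transcription factor, had 7.07, 7.21, 7.28 and 6.97 at 48 hr and 6.45, 6.18, 6.58 and 6.67 at 24 hr, a difference of 0.66 (0.40 to 0.92). Its times were apart in both genotypes, at 0.82 in Il10-/- and 0.50 in Il10+/+ mice. Nr4a1, an orphan nuclear receptor, had 9.42, 10.02, 9.74 and 9.88 at 48 hr and 8.87, 8.90, 9.54 and 9.40 at 24 hr, a difference of 0.59 (0.25 to 0.93). Arid5a, which stabilizes inflammatory messages, is not in the list and was named only because its arrays did not overlap. It had 7.50, 7.62, 7.69 and 7.51 at 48 hr and 7.13, 7.03, 7.06 and 7.21 at 24 hr. Its difference of 0.47 (0.27 to 0.68) was alike in Il10-/- (0.49) and Il10+/+ mice (0.46). Of 22 heat shock genes, 20 were above 0 with a median of 0.13, but 0 had an unadjusted p under 0.05. Without Il10-/- air 48 hr replicate 2, whose mean over the list was 11.42 against 10.13 to 10.90 on the other 7 arrays, that median was -0.06. It was 0.30, with 3 genes higher at that p, without the library labelled replicate 1 of the group.

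**Figure D3:**
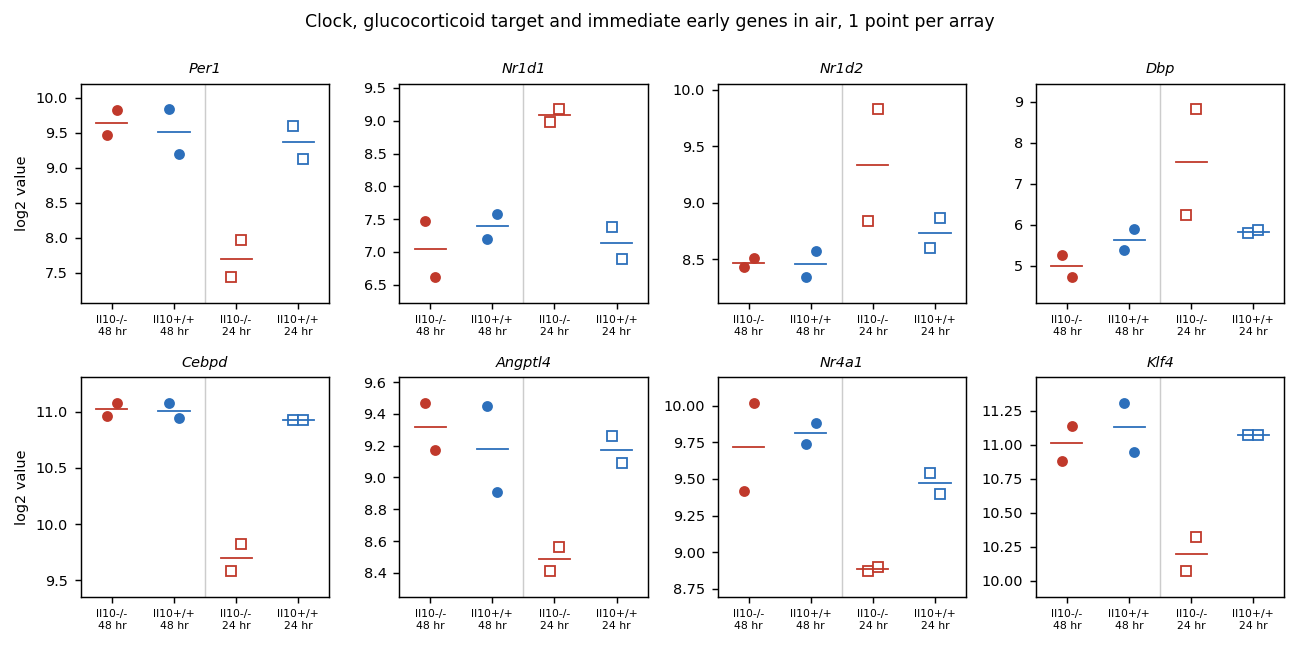
Log2 value (y axis, own scale in each panel) of 4 clock genes and 4 others, 1 point per array and a line at each group's mean. The others are Angptl4 of the glucocorticoid list, Nr4a1 and Klf4 of the immediate early list, and Cebpd of the acute phase list. Filled points are 48 hr and open points 24 hr, with Il10-/- left of Il10+/+ mice. The Il10-/- arrays of 24 hr (open, left) were apart from the other 6 for Per1, Nr1d1, Dbp, Cebpd, Angptl4, Nr4a1 and Klf4.

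Several groups of interest to an O3 study differed little in air. Of 21 NRF2 and antioxidant genes, 30 inflammatory cytokines and chemokines and 12 IL-10 pathway genes, 0, 1 and 0 had an unadjusted p under 0.05, and the medians were -0.04, 0.01 and -0.09. In the IL-10 pathway the genotypes had opposite signs, with a median of -0.23 in Il10-/- mice, where 2 of 12 genes were above 0, and of 0.10 in Il10+/+ mice, where 9 were. The -0.23 includes the library labelled replicate 1 of Il10-/- air 48 hr. The list's mean was 7.591 on it, 7.787 on replicate 2 of its group and 7.875 and 8.001 in Il10-/- mice at 24 hr. On the Il10+/+ arrays it was 7.590 to 7.784. Without that library the medians over both genotypes were -0.02, 0.02 and -0.03 for the 3 lists. The 54 genes of oxidative phosphorylation had a median of 0.04 and the 19 p53 target genes one of 0.04, with 0 at that p in both. All 11 genes of alveolar type 2 cells were slightly below 0, with a median of -0.09 and 0 at that p. Of 18 endothelial genes 1 was lower at that p. This was Vwf, the von Willebrand factor, with 11.30 to 11.39 at 48 hr and 11.49 to 11.71 at 24 hr. These intervals do not show equality, since half-widths of about 0.25 leave room for small differences.

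Whether the genotypes differed in this change was tested as an interaction. Of 12394 genes, 0 passed (limma, smallest adjusted p 0.61), and 477 (3.85%) had an unadjusted p under 0.05. Within Il10-/- mice 0 genes passed and 428 (3.45%) had an unadjusted p under 0.05. Within Il10+/+ mice 0 passed and 311 (2.51%) had such a p. Without the library labelled replicate 1 of Il10-/- air 48 hr, 0 passed in each, and 523, 533 and 291 genes had an unadjusted p under 0.05 for the interaction, within Il10-/- and within Il10+/+ mice. The 6 genes with the smallest p of the interaction are given as differences of log2 changes, Il10-/- minus Il10+/+. They were Gja4, a gap junction protein of arteries (-1.14 ± 0.17, SE), Klra8, a receptor of natural killer cells (-1.63 ± 0.26), Cebpd (1.24 ± 0.20), Nr1d1 (-2.29 ± 0.40), Sfrp2, a secreted modulator of Wnt signals (1.32 ± 0.25), and Bpifa1 (-5.07 ± 1.03). Without that library they were -1.15 for Gja4, -1.68 for Klra8, 1.30 for Cebpd, -2.72 for Nr1d1, 1.24 for Sfrp2 and -4.39 for Bpifa1, and the smallest adjusted p, that of Nr1d1, was 0.41 (limma). Gja4 had values of 8.99 and 8.97 in Il10-/- and 9.31 and 9.40 in Il10+/+ mice at 48 hr, against 9.71 and 9.64 in Il10-/- and 8.90 and 8.93 in Il10+/+ mice at 24 hr, with opposite orders of the times. Sfrp2 had 6.62, 6.46, 6.15 and 5.88 at 48 hr and 6.49, 6.22, 6.97 and 7.32 at 24 hr. Klra8 belongs to a family of near-identical receptor genes, and its probe set may read other members.

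**Figure D4:**
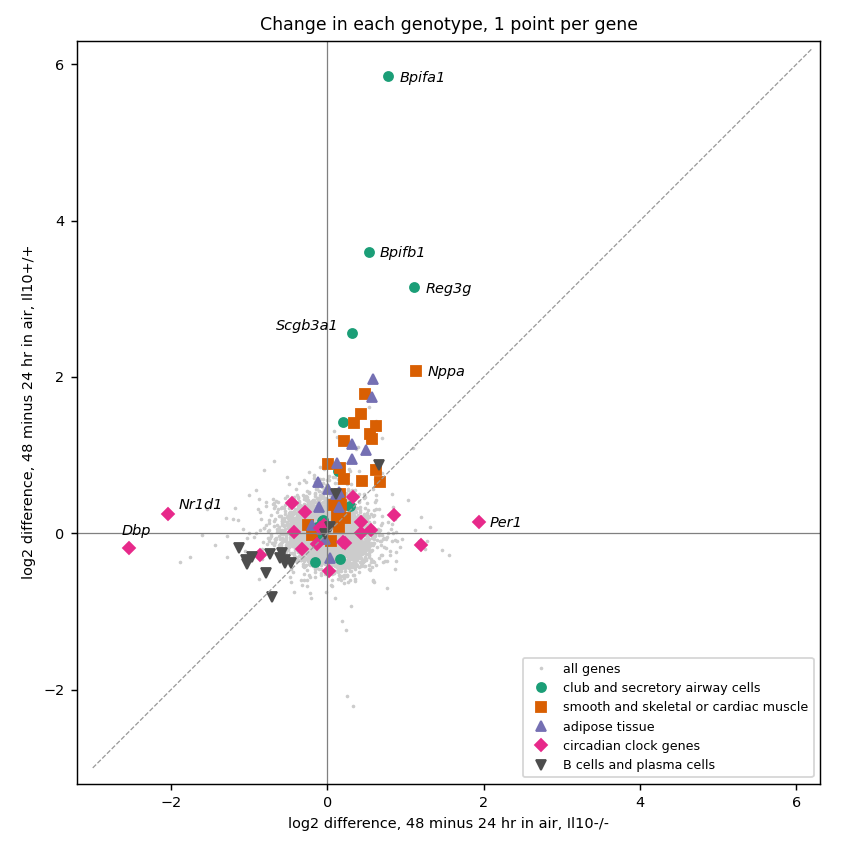
Log2 difference, 48 minus 24 hr in air, within Il10-/- (x axis) and within Il10+/+ mice (y axis), 1 point per gene, with 5 gene lists in color and a dashed line where both are equal. Bpifa1 (0.78 and 5.85) and Nppa (1.14 and 2.08) lay above the line, while Per1 (1.94 and 0.15), Nr1d1 (-2.04 and 0.25) and Dbp (-2.54 and -0.19) lay along the x axis.

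Single groups of 2 arrays stood apart for many genes, at either time. Both Il10+/+ arrays of 24 hr were below the other 6 for 455 genes (3.67%), 19 of them by over 1, and above them for 348 (2.81%). Both Il10-/- arrays of 24 hr were below for 486 (3.92%) and above for 499 (4.03%). At 48 hr the Il10-/- arrays were below for 492 (3.97%) and the Il10+/+ arrays for 194 (1.57%). Of the 12 genes higher by over 1, 11 had the larger difference in Il10+/+ mice, among them Ttn by only 1.096 against 1.095. Of the same 12, 10 had their lowest array among the Il10+/+ arrays of 24 hr. They were picked on these arrays by a difference that low arrays of 24 hr enlarge. These counts therefore only describe them.

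The change from 24 to 48 hr was also set against that in mice breathing O3 at 0.3 ppm over the same times. No array was shared between the changes. With O3, 783 genes (6.32%) passed over 25 arrays, 414 (3.34%) of which rose and 369 (2.98%) fell. The O3 change minus the air change passed for 83 genes (0.67%, and 11.9% at an unadjusted p under 0.05), with 72 (0.581%) above and 11 (0.0888%) below 0. Over all 26 arrays, Il10-/- O3 24 hr replicate 2 included, 0 passed and 751 had an unadjusted p under 0.05. Without the library labelled replicate 1 of Il10-/- air 48 hr, 51 passed.

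Genes of DNA replication and cell division made up 27 of the 83. In air, the 48 measured genes had a median of 0.02, and 2 had an unadjusted p under 0.05, both higher. In O3, 43 of the 48 rose, with a median of 1.06. The mean over the list was 7.12 to 7.63 on the 6 arrays of O3 at 48 hr and 5.81 to 6.58 on 5 arrays of O3 at 24 hr, against 5.99 to 6.23 in air at 48 hr and 5.92 to 6.26 in air at 24 hr. Cep55, needed for the final cut between daughter cells, had a change of 2.40 in O3 and -0.05 in air, a difference of 2.45 ± 0.26 (SE, adjusted p = 0.00015, limma). Bub1, a kinase of the spindle checkpoint, had 1.67 in O3 and -0.07 in air, Anln, a scaffold of the cleavage furrow, 2.03 and 0.13, and Kif20a, a motor of the spindle midzone, 1.42 and -0.09. Hells, a chromatin remodeler, had 1.45 in O3 and -0.02 in air, and Nuf2, part of the kinetochore, 1.20 and -0.14. Birc5, the cell division protein survivin, had 2.39 in O3 and 0.37 in air (0.05 to 0.68). Its values in air were 5.08, 5.43, 5.48 and 5.72 at 48 hr and 4.67, 4.82, 5.13 and 5.63 at 24 hr, which overlapped.

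**Figure D5:**
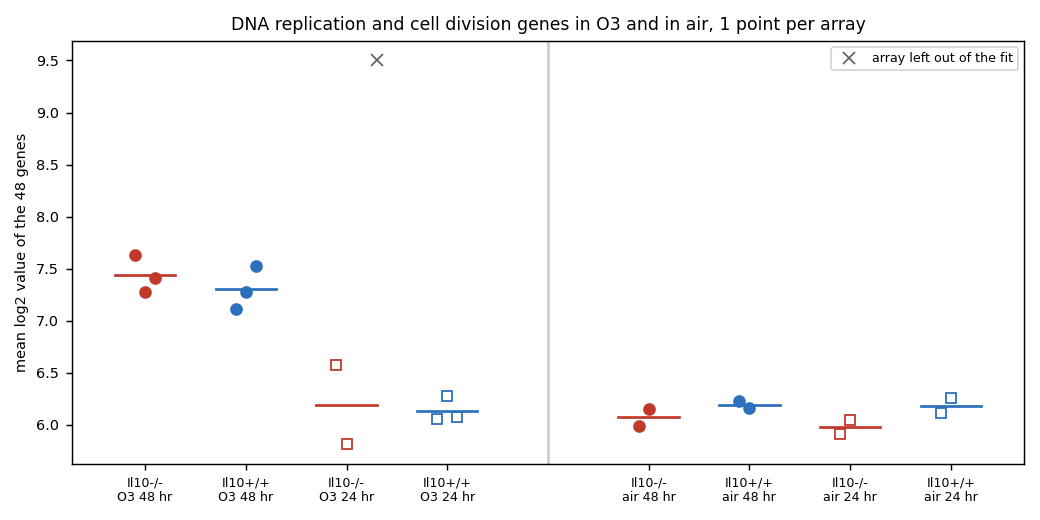
Mean log2 value (y axis) of the 48 DNA replication and cell division genes on each array of O3 and of air, 1 point per array, by genotype and time (x axis), with lines at group means that leave out the cross. The 6 O3 arrays of 48 hr lay between 7.12 and 7.63 and the 8 air arrays between 5.92 and 6.26, and Il10-/- O3 24 hr replicate 2 (cross) stood at 9.51.

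For 3 of the genes above, the difference between O3 and air ran below 0 and passed the test. Per1 had a change of -0.52 in O3 and 1.05 in air, a difference of -1.57 ± 0.31 (SE, adjusted p = 0.0195, limma). Cebpd had -0.34 in O3 and 0.70 in air, and Angptl4 -0.86 in O3 and 0.42 in air. Of these O3 changes only that of Angptl4 passed (adjusted p = 0.0029, and 0.13 for Per1 and 0.10 for Cebpd). None of the 26 immediate early genes passed the test of the difference. With the contrast taken in Il10+/+ mice alone, the differences were -0.51 for Per1, -0.07 for Cebpd and -0.29 for Angptl4 and did not pass. The larger differences over both genotypes thus rested on the Il10-/- arrays, among them the pair of air at 24 hr that stood apart above. For Bpifa1 the O3 change was -0.63, the air change 3.31 and the difference -3.95 ± 1.79 (SE, adjusted p = 0.39).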

How the data were processed

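Total RNA of left lungs was hybridised by the authors to 26 Affymetrix mouse arrays. The deposited log2 values came from the authors' Robust Multichip Average summary in RMAExpress, which corrects background, applies quantile normalization and fits a median polish, and whose version is not given in the sources used here. They were used unchanged. Gene symbols came from the platform annotation of 2016. Of 22690 probe sets, 691 with several symbols and 1606 without an entry were dropped. Where a gene had several probe sets (4958 genes), that of the highest mean over all arrays stood for it, which left 12394 genes. Promoters came from RefSeq (GRCm38.p6), in which 12370 genes matched.

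The 8 air arrays were fitted with limma 3.58.1 in R 4.3.3 with genotype and time as terms (5 residual degrees of freedom), with 4 group means for the change within a genotype and its difference, and with 10 group means over 25 arrays for O3 against air. Il10-/- O3 24 hr replicate 2 was left out of these because it stood apart and the methods left out 1 array of that group. P-values were adjusted over all genes by the Benjamini-Hochberg method, with a threshold of 0.05. The number of arrays limits the precision. The air comparison was tested on simulated data of 12394 genes. Of 50 altered genes per size, 48% were recovered at 0.5, 88% at 1 and 98% at 1.5 on the log2 scale, with 12 unchanged genes called. The simulated noise was independent, had the spread within the 4 groups and held no difference between the genotypes. The real fit also counts genotype differences of the change as spread, so these shares do not give the recovery in the data. Of the 15 genes with a difference over 1 in the data, 0 passed.

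The comparison, the 41 gene lists and the rule for named genes were chosen with earlier results of these data known. The rule took up to 15 genes over 1 in size, 12 genes in each direction by the smallest p among those with non-overlapping arrays, the 3 members of each list with the smallest p, the 6 genes with the smallest p of each difference test, and Il10. The text names those that describe a group. Scgb1a1, Scgb3a2, Cyp2f2, Acta2, Myh11 and Nnt were named after their values were seen. Alternatives were array weights, median centring, averaging over probe sets of a gene, genes of low mean (a share of 0.3333) left out, the letter c that ends some source names as a covariate, the replicate number as a block, and each array left out in turn. Plots used Python 3.11.15 and matplotlib 3.10.9.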

Additional observations from a re-analysis of the deposited data

Results flagged for a closer look

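Of the 83 genes that passed the test of the difference between O3 and air (limma over 25 arrays), 11 are named here. The O3 change minus the air change is given for them on the log2 scale. It was 2.45 for Cep55, 2.02 for Birc5, 1.90 for Anln, 1.74 for Bub1, 1.51 for Kif20a, 1.47 for Hells, 1.37 for Nusap1 and 1.34 for Nuf2, all of cell division. It was -1.57 for Per1, -1.28 for Angptl4 and -1.04 for Cebpd. Adjusted p-values lay between 0.00015 and 0.0209, and between 0.41 and 0.91 over all 26 arrays.

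A single array lay far from the other 3 of its time in 8 of 146 groups of 4 air arrays, and chance alone gives about 1 in 20 such groups. Il10-/- air 48 hr replicate 2 had 9.55 for Chil1, 7.88 for Ctse and 6.72 for Il10, genes that separated the genotypes, where the library labelled replicate 1 lay with the Il10+/+ arrays. That library had 5.40 for Nusap1, against 5.95 to 6.00 on the other 3. Il10+/+ air 48 hr replicate 1 had 7.49 for Adipoq and 8.96 for Fabp4, both of fat, against 6.22 to 6.44 and 7.86 to 8.00. At 24 hr, Dbp was 8.82 on Il10-/- replicate 2, against 5.79 to 6.23, and Vwf was 11.71 on Il10+/+ replicate 2, against 11.49 to 11.51. Their causes were not tested.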

How the results depend on the processing

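No gene passed between 48 and 24 hr in air under any of the 17 alternatives run. The 56 genes named for this comparison kept their direction in all of theirs. They were picked largely on these same arrays, for size, small p or non-overlap. Few reversals could therefore occur, and the kept direction is no separate support. The number of genes at an unadjusted p under 0.05 was 310, 194 with genes of low mean (a share of 0.3333) left out and 852 with array weights. With an array left out it lay between 255 and 919, the highest without Il10+/+ air 48 hr replicate 2. The replicate number as a block gave 0 genes passing and 352 at that p. Deviations of same-numbered arrays correlated at -0.133 to 0.218 over 6 pairs of groups. With 2 arrays per group, this cannot tell whether same-numbered arrays shared anything beyond the number. Of 9 list medians followed through these alternatives, that of heat shock genes turned, to -0.057 without Il10-/- air 48 hr replicate 2, and it was 0.298 at most with an array left out. Over all 41 lists, 8 medians changed sign without that array, among them endoplasmic reticulum stress (0.012 and -0.105 without it) and dendritic cell genes (-0.083 and 0.027 without it), and 4 did without the library labelled replicate 1 of the group.

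Within Il10-/- mice 2 genes passed with 10 group means over 25 arrays, and 0 to 4 with an array left out (4 without Il10-/- air 24 hr replicate 1). Within Il10+/+ mice it was 0 to 1, and 0 to 2 for the difference between genotypes. For O3 against air, 83 genes passed. It was 0 over all 26 arrays, 17 in Il10+/+ mice alone, 54 with genes of low mean (a share of 0.3333) left out, 40 with array weights and 108 with the replicate block. With an array left out it lay between 30 (without Il10+/+ air 24 hr replicate 2) and 502 (without Il10-/- O3 24 hr replicate 3). It was 420 without Il10-/- O3 24 hr replicate 1, 54 without Il10+/+ air 48 hr replicate 2 and 51 without the library labelled replicate 1 of Il10-/- air 48 hr. The causes were not tested. Of the other probe sets of named genes, 21 of 25 had the same direction in air, and those of Sln (-0.04), Myl4 (-0.01), Fabp4 (-0.12) and Ctse (0.13) did not.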
